A study of Mus musculus with 9 samples.

Results

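The genes described here are *Tgfb1*, *Tgfbi*, *Acta2*, *Vim*, *Fn1*, *Postn*, *Tnc*, *Eln*, *Lox* and *Spp1*, 10 genes of TGF-β signaling, of myofibroblasts and of the extracellular matrix. They were taken by symbol from a table of 34638 genes measured by RNA sequencing in whole mouse lung, and all 10 were found once each. The collagens were not included. The lungs came from 9 wild-type C57BL/6 mice in 3 groups of 3. Control mice were challenged with phosphate-buffered saline (PBS). Mice of the IL-33 group received 0.5 µg of recombinant mouse IL-33 into the trachea on each of days 0 to 3. Mice of the IL-33+LM8 group received the same challenges after an intraperitoneal injection of LM8, a MyD88 inhibitor, at 10 mg/kg. The methods of the study describe the PBS and IL-33 mice as female, give them an age of 6 to 8 weeks and put the collection of their lungs on day 4. They do not describe the IL-33+LM8 mice, whose age and day of collection were not given in the sources used here. No group received LM8 without IL-33, and no source used here states whether the other groups were injected with the solvent of LM8. The labels describe the libraries as replicates of whole lung and do not tie them to litters or cages, so p-values measure the spread between these mice only.

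IL-33 is an alarmin released by damaged epithelium. It binds the receptor ST2 and signals through the adaptor MyD88. TGF-β1, the product of *Tgfb1*, is secreted in a latent complex, and once released it activates receptor kinases that phosphorylate SMAD transcription factors. In fibroblasts this signal is known to start the myofibroblast program, in which cells build contractile fibers of α-smooth muscle actin (α-SMA) and secrete fibronectin, periostin, tenascin-C and elastin. Lysyl oxidase then cross-links elastin and collagen. These proteins accumulate around the airway in asthma, a process termed airway remodeling, but several of the genes are also transcribed by macrophages or by resting smooth muscle. In bulk lung RNA, fewer cells of a type and less RNA per cell cannot be told apart.

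The promoters of 4 genes are printed first, chosen after the values were seen because these genes had different courses. *Tgfbi* and *Spp1* rose with IL-33 and fell with LM8, *Acta2* rose and did not fall, and *Postn* fell only with LM8 present. Each run covers the 250 bases before an annotated start, read on the strand of the gene from RefSeq promoter windows of GRCm38.p6. Capitals mark the TATA box sequence TATAAA on the printed strand and the core of a SMAD-binding element on either strand. The core is spelled CAGAC, and shows as its reverse complement where the element is on the other strand. *Tgfbi* lies at chr13:56609336-56609585 on the plus strand, *Acta2* at chr19:34255374-34255623 on the minus strand, the second annotated start of *Postn* at chr3:54360857-54361106 on the plus strand and the first of *Spp1* at chr5:104434861-104435110 on the plus strand.
Tgfbi: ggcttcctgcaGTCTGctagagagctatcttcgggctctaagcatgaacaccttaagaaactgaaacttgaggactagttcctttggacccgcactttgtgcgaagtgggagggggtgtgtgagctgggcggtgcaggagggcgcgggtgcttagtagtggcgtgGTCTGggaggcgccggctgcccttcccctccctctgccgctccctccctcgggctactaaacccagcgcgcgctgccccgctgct
Acta2: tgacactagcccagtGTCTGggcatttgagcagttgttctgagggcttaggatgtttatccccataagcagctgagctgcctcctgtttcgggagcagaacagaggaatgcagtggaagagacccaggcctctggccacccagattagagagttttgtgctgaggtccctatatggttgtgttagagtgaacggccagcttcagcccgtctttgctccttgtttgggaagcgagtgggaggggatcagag
Postn: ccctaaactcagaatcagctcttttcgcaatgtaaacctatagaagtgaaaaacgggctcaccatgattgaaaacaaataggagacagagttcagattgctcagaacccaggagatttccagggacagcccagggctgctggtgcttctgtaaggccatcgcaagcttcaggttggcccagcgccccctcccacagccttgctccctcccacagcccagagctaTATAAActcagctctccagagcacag
Spp1: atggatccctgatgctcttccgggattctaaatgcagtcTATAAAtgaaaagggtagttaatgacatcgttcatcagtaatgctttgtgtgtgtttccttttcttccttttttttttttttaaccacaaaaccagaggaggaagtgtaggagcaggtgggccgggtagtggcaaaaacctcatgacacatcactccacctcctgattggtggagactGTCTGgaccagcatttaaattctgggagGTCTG
The SMAD element began 239 and 85 bases before the start of *Tgfbi*, 235 bases before that of *Acta2* and 33 and 5 bases before the first start of *Spp1*. The printed *Postn* window holds none, but the window of its first start, not printed, held 1 that began 191 bases before that start. The sequence TATAAA began 26 bases before the second start of *Postn* and 211 bases before the first start of *Spp1*. RefSeq windows of 300 bases were matched for 7 of the 10 genes, *Tgfb1*, *Tgfbi*, *Acta2*, *Vim*, *Postn*, *Tnc* and *Spp1*. Of these 7, 5 held a SMAD element on either strand in at least 1 window, against 49.6% of 32851 windows of all genes. The TATA box sequence TATAAA was matched on either strand in 4, against 13.6%. It began 32 bases before the start of *Vim*, and 205 and 126 bases before the annotated starts of *Tnc*. Whether any of these matches acts as a TATA box was not tested. An AP-1 site (TGANTCA, in 7.81% of windows), a STAT site (TTCNNNNGAA, in 6.95%) and the strict consensus of the CArG box, the element bound by serum response factor (in 1.63%), were not matched in the windows of the 7. The CArG search allowed no mismatch, and variants that depart from the consensus, as the CArG elements known from the *Acta2* promoter do, were not counted. A CArG box can share bases with a TATA box, and several genes have more than 1 window, so these shares are descriptions only.

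Total counts per library ranged from 53877663 to 90607218, and the lowest count of any of the 10 genes in any mouse was 931, so sampling noise was small for all of them. Lung markers were abundant in every mouse: *Sftpc*, the surfactant protein C gene of alveolar type 2 cells, was at 11030 ± 530 FPKM in PBS, 4993 ± 98.0 FPKM in IL-33 and 9203 ± 477 FPKM in IL-33+LM8 mice (SD, n = 3 each). Levels are given in FPKM, the fragments of a gene scaled to transcript length and to all mapped fragments of the library. Fold changes come from the counts. They were tested with the quasi-likelihood method of edgeR, and p-values were adjusted over all genes tested. A gene is said to have risen or fallen where the adjusted p was under 0.05, and to be called where the absolute log2 fold change was also at least 1. Groups of 3 are too small for exact permutation of a gene's own values, whose lowest possible p is 0.1.

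With IL-33, 8 of the 10 genes rose, *Eln* fell and *Postn* did not pass the test. The share that rose among all 16831 genes tested was 27.4%, and the share that fell was 27.2%. Called higher were 6 of the 10, *Tgfb1*, *Tgfbi*, *Fn1*, *Tnc*, *Lox* and *Spp1*, against 10.8% of genes tested, and none was called lower, against 6.24%. The median log2 fold change of the 10 genes was 1.22, and that of all genes tested was -0.005. FPKM of the groups did not overlap for 8 of the 10, where 63.4% of all genes tested had no overlap. In order of the ratio of mean FPKM, *Tnc* was 4.79 times its PBS level, *Tgfbi* 3.86, *Fn1* 3.32, *Spp1* 2.52, *Tgfb1* 2.45, *Lox* 2.22, *Vim* 1.81 and *Acta2* 1.78 times, while *Postn* was at 1.00 and *Eln* at 0.652 of it.

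With LM8 added to IL-33, 9 of the 10 genes fell against IL-33 alone, none rose and *Acta2* did not pass the test. Among all 16831 genes tested, 13.9% fell and 12.6% rose. *Fn1*, *Tnc* and *Spp1* were called lower, 3 of the 10 against 3.93% of genes tested. The median log2 fold change was -0.81 for the 10 genes and -0.006 for all genes. FPKM did not overlap between these groups for any of the 10, *Acta2* included, against 43.2% of all genes. This comparison shares the IL-33 mice with the one of IL-33 against PBS.

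Against PBS, 4 genes of the IL-33+LM8 mice were higher by the test (*Tgfb1*, *Tgfbi*, *Acta2* and *Vim*), 2 were lower (*Postn* and *Eln*) and 4 did not pass (*Fn1*, *Tnc*, *Lox* and *Spp1*). Of the 16829 genes tested here, 16.3% were higher and 13.4% lower. *Tgfbi* and *Acta2* were called higher, where 5.87% of genes were, and *Eln* was called lower, where 1.46% were. FPKM did not overlap for 7 of the 10, against 47.3% of all genes tested.

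**Figure D1:**
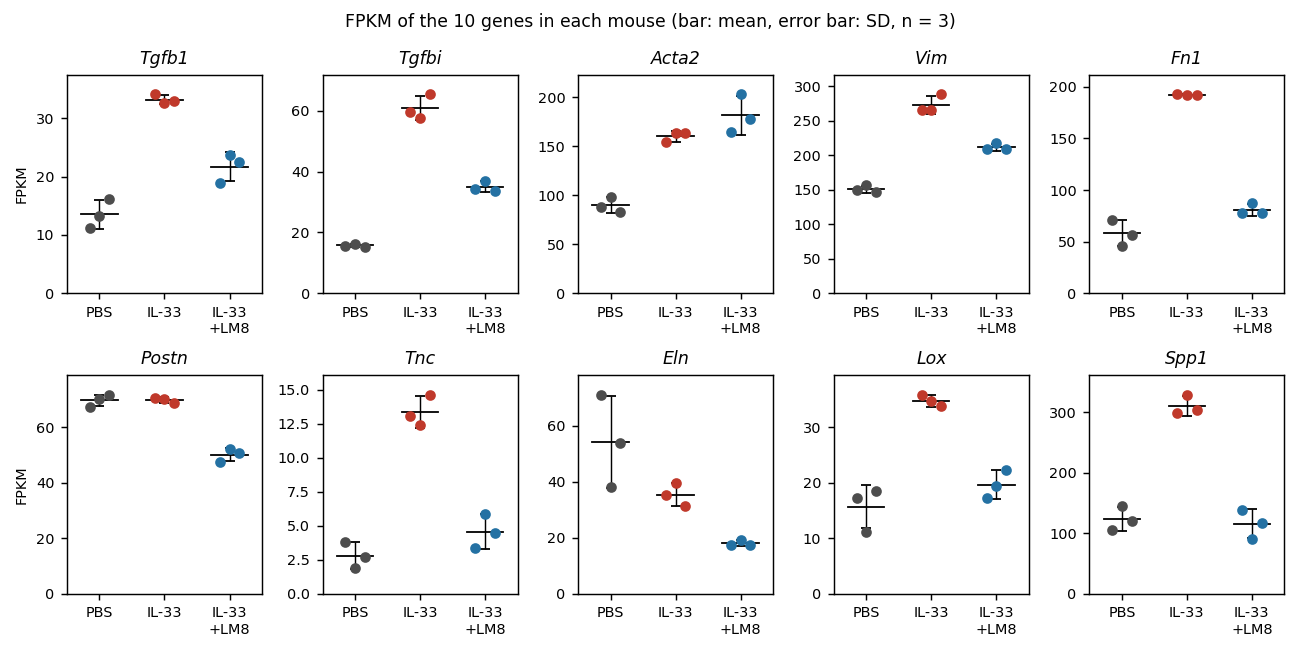
FPKM of the 10 genes in each of the 9 lungs, 1 panel a gene with its own linear axis; points are mice, horizontal lines the group mean and error bars the SD of 3 mice. *Fn1*, *Tnc*, *Lox* and *Spp1* rise and come back towards the PBS level, *Acta2* stays up, and *Postn* and *Eln* are lowest in the IL-33+LM8 mice.

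*Tgfb1* (ENSMUSG00000002603) encodes the ligand itself, and the deposited table places it on chromosome 7, 25386427 to 25404502, plus strand. That table names no build and its coordinates differ from those of GRCm38, so they are not to be joined with the promoter windows. FPKM of *Tgfb1* was 11.2, 13.3 and 16.1 in PBS mice, 34.1, 32.5 and 32.9 in IL-33 mice and 18.9, 23.7 and 22.5 in IL-33+LM8 mice. The 3 groups were separate, with the IL-33+LM8 mice in between. The log2 fold change was 1.29 ± 0.12 (SE) with IL-33 (adjusted p = 8.8e-05), -0.61 ± 0.09 in IL-33+LM8 against IL-33 (adjusted p = 0.0022) and 0.70 ± 0.14 in IL-33+LM8 against PBS (adjusted p = 0.0095).

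*Tgfbi* (ENSMUSG00000035493; chromosome 13, 56757336 to 56787375, plus strand) encodes an integrin-binding matrix protein that was named for its induction by TGF-β. Its FPKM was 15.7, 16.3 and 15.2 in PBS mice, 59.7, 57.5 and 65.3 in IL-33 mice and 34.4, 37.0 and 33.5 in IL-33+LM8 mice. The groups were again separate and in the same order, with tight replicates. Fold changes on the log2 scale were 1.95 ± 0.06 with IL-33 (adjusted p = 1.4e-06), -0.80 ± 0.07 with LM8 added (adjusted p = 0.00033) and 1.16 ± 0.06 between IL-33+LM8 and PBS (adjusted p = 4.6e-05). Its mean in IL-33+LM8 mice was 0.575 of that in IL-33 mice, and that of *Tgfb1* was 0.654.

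*Acta2* (ENSMUSG00000035783; chromosome 19, 34218490 to 34232990, minus strand) encodes α-SMA, the actin of smooth muscle and myofibroblasts. PBS mice had 88.6, 98.8 and 82.9 FPKM, IL-33 mice 154.0, 163 and 164, and IL-33+LM8 mice 164, 203 and 178. It was the only one of the 10 genes whose mean was higher in IL-33+LM8 than in IL-33 mice, although IL-33+LM8 replicate 1 lay close to the highest IL-33 mice. The rise with IL-33 was 0.83 ± 0.07 on the log2 scale (adjusted p = 8.4e-05), under the minimum for a call. IL-33+LM8 against IL-33 gave 0.18 ± 0.09 with a 95% interval from -0.03 to 0.39 (adjusted p = 0.19), and the test was not passed although the FPKM did not overlap. That value was 0.09 without IL-33+LM8 replicate 2 and at most 0.25 with any other mouse left out. Against PBS, the IL-33+LM8 mice were higher by 1.03 ± 0.11 (adjusted p = 0.00061), a value next to the minimum of 1: it was 0.94 without IL-33+LM8 replicate 2 and 0.96 without PBS replicate 3, where the call was lost and the test still passed.

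*Vim* (ENSMUSG00000026728; chromosome 2, 13578738 to 13587637, plus strand) encodes vimentin, the intermediate filament of mesenchymal cells, endothelium and leukocytes. Its FPKM was 149, 157 and 147 in PBS mice, 266, 265 and 288 in IL-33 mice and 209, 218 and 209 in IL-33+LM8 mice. All 3 groups were apart, and the IL-33+LM8 mice lay about midway. The log2 fold changes were 0.85 ± 0.06 (adjusted p = 3.1e-05), -0.37 ± 0.07 (adjusted p = 0.0066) and 0.50 ± 0.07 (adjusted p = 0.0019) for IL-33 against PBS, IL-33+LM8 against IL-33 and IL-33+LM8 against PBS, none of them large enough for a call.

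*Fn1* (ENSMUSG00000026193; chromosome 1, 71624679 to 71692334, minus strand) encodes fibronectin, the adhesive glycoprotein on which other matrix proteins assemble. PBS mice had 71.2, 46.3 and 56.6 FPKM, IL-33 mice 192.5, 192.2 and 192.3, and IL-33+LM8 mice 77.7, 87.3 and 77.7. The IL-33 mice were nearly identical and far above the rest. Each IL-33+LM8 mouse was above each PBS mouse, and the closest values of these 2 groups were 77.7 and 71.2 FPKM. IL-33 raised it by 1.73 ± 0.15 on the log2 scale (adjusted p = 7.7e-05), and IL-33+LM8 mice were lower than IL-33 mice by 1.25 (log2 fold change -1.25 ± 0.08, adjusted p = 8.3e-05). The remaining difference from PBS was 0.49 ± 0.16 (adjusted p = 0.055). With the replicate number as a block it was 0.51 and passed the test (adjusted p = 0.040), and it also passed without PBS replicate 1 (0.68, adjusted p = 0.014).

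*Tnc* (ENSMUSG00000028364; chromosome 4, 63878022 to 63965252, minus strand) encodes tenascin-C, a matricellular protein that is scarce in resting adult tissue and appears on injury. It was the least abundant of the 10 genes, at 3.81, 1.86 and 2.70 FPKM in PBS mice, 13.1, 12.4 and 14.6 in IL-33 mice and 3.34, 5.88 and 4.44 in IL-33+LM8 mice. IL-33 mice stood alone, and IL-33+LM8 replicate 1 fell within the range of the PBS mice. The log2 fold changes were 2.26 ± 0.25 with IL-33 (adjusted p = 0.00021) and -1.55 ± 0.20 with LM8 added (adjusted p = 0.0013), the largest of the 10 genes in both comparisons. Between IL-33+LM8 and PBS it was 0.72 ± 0.30 (adjusted p = 0.11).

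*Spp1* (ENSMUSG00000029304; chromosome 5, 104582984 to 104588916, plus strand) encodes osteopontin, a secreted integrin and CD44 ligand made by macrophages and epithelium as well as by mesenchymal cells. Its FPKM was 105, 145 and 120.0 in PBS mice, 299, 329 and 304 in IL-33 mice and 139, 91.1 and 117 in IL-33+LM8 mice. IL-33 mice were apart from all others, and the IL-33+LM8 and PBS mice overlapped. It rose by 1.33 ± 0.11 (log2, adjusted p = 6.5e-05) with IL-33, and the log2 fold change of IL-33+LM8 against IL-33 was -1.42 ± 0.14 (adjusted p = 0.00046). The difference between IL-33+LM8 and PBS was -0.08 ± 0.17 (adjusted p = 0.76), and its sign turned when replicate 2 of either group was left out. *Spp1* shares its strand with *Gm42793*, a gene model that overlaps it and carried 34 to 108 counts a mouse. All 250 of the 31-base words that *Spp1* shares with other genes, 14.3% of its own, were shared with that model, so a few of its reads may be assigned to either.

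*Postn* (ENSMUSG00000027750; chromosome 3, 54268530 to 54298458, plus strand) encodes periostin, a matricellular protein that serves as a marker of type 2 airway inflammation in people. FPKM was 67.5, 70.2 and 71.6 in PBS mice, 70.6, 70.3 and 68.8 in IL-33 mice and 47.5, 52.4 and 50.7 in IL-33+LM8 mice. PBS and IL-33 mice were interleaved, and every IL-33+LM8 mouse was below both groups. The log2 fold change with IL-33 was 0.00 ± 0.05, with a 95% interval from -0.11 to 0.11 (adjusted p = 0.99). With LM8 added it was -0.48 ± 0.06 against IL-33 (adjusted p = 0.0013) and -0.46 ± 0.07 against PBS (adjusted p = 0.0027). *Postn* was lower with LM8 although it was not higher with IL-33.

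*Eln* (ENSMUSG00000029675; chromosome 5, 134731447 to 134776177, minus strand) encodes tropoelastin, the monomer of elastic fibers in alveolar walls, airways and vessels. It was at 71.1, 38.2 and 53.8 FPKM in PBS mice, 35.4, 39.7 and 31.2 in IL-33 mice and 17.5, 19.3 and 17.4 in IL-33+LM8 mice. PBS mice were widely spread and replicate 2 overlapped the IL-33 mice, whereas all IL-33+LM8 mice were below every other mouse. The fall with IL-33 was -0.62 ± 0.22 on the log2 scale (adjusted p = 0.043). It was -0.37 without PBS replicate 1 and -0.82 without PBS replicate 2, and of the 6 fits that left out a mouse, only the last passed the test (adjusted p = 0.0054). The fall with LM8 was clearer, at -0.97 ± 0.10 against IL-33 (adjusted p = 0.00044) and -1.58 ± 0.21 against PBS (adjusted p = 0.0019).

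*Lox* (ENSMUSG00000024529), on the minus strand of chromosome 18, encodes lysyl oxidase, the copper enzyme that cross-links elastin and collagen. PBS mice had 17.3, 11.2 and 18.6 FPKM, IL-33 mice 35.9, 34.7 and 33.8, and IL-33+LM8 mice 17.2, 19.4 and 22.4. The IL-33 mice were above all others, and IL-33+LM8 mice overlapped the PBS mice. The log2 fold change was 1.15 ± 0.17 with IL-33 (adjusted p = 0.0011), and 0.95 without PBS replicate 2, where it was no longer called. With LM8 added it was -0.82 ± 0.09 (adjusted p = 0.0008), and between IL-33+LM8 and PBS it was 0.34 ± 0.19 (adjusted p = 0.22), and 0.15 without PBS replicate 2. *Lox* and its substrate gene *Eln* had estimates of opposite sign with IL-33, although the fall of *Eln* depended on the mice included and its groups overlapped. Both genes fell with LM8 added.

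**Figure D2:**
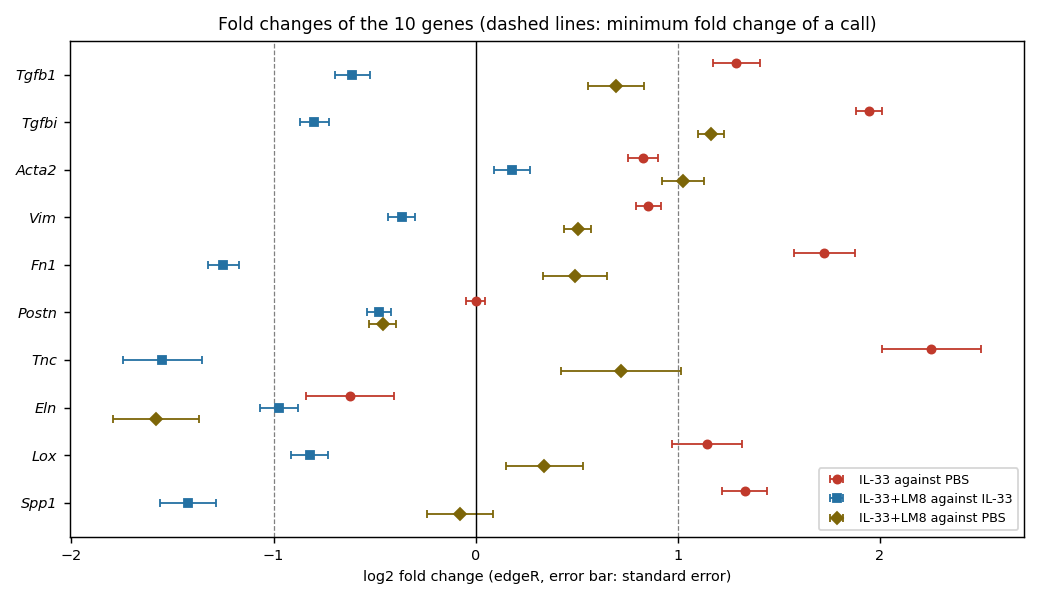
Log2 fold change of each of the 10 genes from the counts in the 3 comparisons; points are edgeR estimates, error bars the SE, and the dashed lines mark the minimum for a call. Against IL-33 alone, all points but that of *Acta2* are below 0; for IL-33+LM8 against PBS, 7 points lie above 0, of which *Tgfb1*, *Tgfbi*, *Acta2* and *Vim* passed the test, and *Postn*, *Eln* and *Spp1* lie below it, *Spp1* without passing.

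The mice of a group did not keep 1 order across the genes. In the PBS group, replicate 2 had the lowest *Fn1*, *Tnc*, *Eln* and *Lox* and the highest *Tgfbi*, *Acta2*, *Vim* and *Spp1*, and replicate 1 had the highest *Fn1*, *Tnc* and *Eln*. In the IL-33+LM8 group, replicate 2 was highest for 8 of the 10 genes and lowest for *Spp1*. *Tnc*, *Eln* and *Lox* were the genes with the widest relative spread among PBS mice, at 2.79 ± 0.98, 54.4 ± 16.5 and 15.7 ± 3.94 FPKM (SD, n = 3). Relative to the mean, all 3 were tighter in IL-33 mice, at 13.4 ± 1.15, 35.4 ± 4.26 and 34.8 ± 1.05 FPKM. Per kilobase, the most abundant of the 10 in PBS mice was *Vim* (151 ± 5.04 FPKM), followed by *Spp1* (123 ± 20.0). In IL-33 mice *Spp1* (310 ± 16.2) came before *Vim* (273 ± 13.1), and in IL-33+LM8 mice *Vim* (212 ± 5.29) was followed by *Acta2* (182 ± 19.7). The FPKM of the leading pair did not overlap in any of the 3 groups.

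Genes whose FPKM followed each of the 10 most closely over the 9 mice differed from gene to gene. For *Tgfb1* the nearest was *Aif1* (Pearson's r = 0.996), a gene of macrophages, and for *Tgfbi* they were *Syngr2* (r = 0.999) and *Adam8* (r = 0.999). *Vim* was nearest to *Def6* (r = 0.999) and to *Tgfbi* itself (r = 0.998), the only pair among the 10 genes that appears in these lists. *Acta2* was nearest to *Fig4* (r = 0.992), *Fn1* to *Neil3* (r = 0.995), *Tnc* to *Igkv1-110* (r = 0.994), *Lox* to *Htra2* (r = 0.985) and *Spp1* to *Hjurp* (r = 0.989). *Postn* was nearest to *Phex* (r = 0.990) and then *Ccn4* (r = 0.976), and *Eln* to *Castor2* (r = 0.983), followed by *Mrc2* and *Mfap4* (r = 0.980 and 0.975). These values describe 9 mice that fall into 3 groups, which all genes share, and carry no test.

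The other genes of the same pathways, 96 genes in 9 lists of which 91 were tested, were split in direction. With IL-33, 35 of them rose and 36 fell (38.5% and 39.6% of the 91, against 27.4% and 27.2% of all genes), 13 and 8 of these being called (against 10.8% and 6.24% of all genes), with a median log2 fold change of -0.10. With LM8 added to IL-33, 21 rose and 27 fell (23.1% and 29.7%, against 12.6% and 13.9%), with 1 called higher and 7 called lower (against 1.46% and 3.93% of all genes) and a median of -0.03. Against PBS, 20 were higher and 28 lower in IL-33+LM8 mice (22.0% and 30.8%, against 16.3% and 13.4%), with a median of -0.13. The counts of each list below are to be read beside the same shares of all genes.

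Of 12 genes tested for the other TGF-β ligands and the proteins that hold or release latent TGF-β, 4 rose and 4 fell with IL-33. Over all genes the shares were 27.4% and 27.2%. *Nrros*, which tethers latent TGF-β1 on macrophages and microglia, rose by 1.87 ± 0.08 on the log2 scale (adjusted p = 2.7e-06), and *Thbs1*, whose product thrombospondin-1 can release the active form, by 1.11 ± 0.09 (adjusted p = 4.8e-05). *Ltbp4*, a latent TGF-β binding protein that also serves elastic fiber assembly, changed by -1.79 ± 0.08 (adjusted p = 3.2e-06), and *Tgfb2* by -0.50 ± 0.11 (adjusted p = 0.0057). With LM8 added, 1 rose and 4 fell: *Ltbp4* was higher by 0.93 ± 0.10 (adjusted p = 0.00059) and *Nrros* changed by -0.50 ± 0.07 (adjusted p = 0.0019). *Tgfb1*, *Nrros* and *Thbs1* remained above PBS in the IL-33+LM8 mice, at 0.70, 1.38 and 0.97.

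Of 5 receptors and co-receptors, 1 rose and 3 fell with IL-33, where 27.4% and 27.2% of all genes did. The type II receptor *Tgfbr2* rose (0.31 ± 0.04, adjusted p = 0.00082), and *Tgfbr1* did not pass the test. Those that fell were *Tgfbr3* (-1.35 ± 0.09), *Eng* (-1.30 ± 0.06) and *Acvrl1* (-1.09 ± 0.06), the largest adjusted p being 2.5e-05. They encode betaglycan, endoglin and the endothelial type I receptor ALK1. With LM8 added these 3 rose, by 1.01, 0.91 and 0.83, and 1 of the 5 fell. The shares of all genes there were 12.6% and 13.9%. Summed FPKM of 7 endothelial markers ran from 782 to 845 in PBS, 479 to 518 in IL-33 and 732 to 750 in IL-33+LM8 mice, the same order. Of the 7, 5 fell and 2 did not pass with IL-33, and 6 rose with LM8 added. *Cldn5*, which did not pass with IL-33, was highest in IL-33+LM8 mice, at 176, 150 and 221 FPKM in the 3 groups. The part of endothelium in the receptor values was not tested.

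The intracellular arm and the target genes were mixed. With IL-33, 27.4% of all genes rose and 27.2% fell. Of 12 SMADs and regulators, 5 rose and 6 fell with IL-33, and only *Bambi*, a decoy receptor, was called (-1.03 ± 0.26, adjusted p = 0.013). *Pmepa1* and *Tgif1*, which restrain the pathway, rose by 0.51 and 0.62 and changed by -0.57 and -0.60 with LM8. Of 14 genes known as TGF-β targets, 6 rose and 3 fell with IL-33. *Timp1*, an inhibitor of metalloproteinases, rose by 5.37 ± 0.19 (adjusted p = 1.9e-06) and *Bhlhe40*, a transcription factor, by 2.06 ± 0.06 (adjusted p = 1e-06). *Ccn2*, connective tissue growth factor, was at 0.12 ± 0.11 (adjusted p = 0.41), and *Smad7*, an inhibitory SMAD, was at -0.63 ± 0.22 (adjusted p = 0.046). With LM8 added, 2 of the 14 rose and 5 fell, and only *Loxl2* was called (-1.01 ± 0.10, adjusted p = 0.0005).

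The other contractile genes were split in direction with IL-33, where *Acta2* rose, and those that passed the test with LM8 added, where *Acta2* did not pass, were all higher. With IL-33, 5 of 14 rose and 4 fell, among them *Actg2*, the actin of visceral smooth muscle (1.16 ± 0.10, adjusted p = 6.7e-05), and *Mylk*, the kinase of myosin light chain (-0.88 ± 0.11, adjusted p = 0.00039). With LM8 added, 8 of the 14 rose and 0 fell, where 12.6% of all genes rose and 13.9% fell, with a median log2 fold change of 0.33. They included *Myh11*, the heavy chain of smooth muscle myosin (0.36 ± 0.10, adjusted p = 0.035), *Myl9* (0.42 ± 0.05), *Tpm2* (0.42 ± 0.06) and *Tagln* (0.26 ± 0.05), and none was called. Summed FPKM of the 14 genes ran from 370.4 to 385 in PBS, 374 to 391 in IL-33 and 460.2 to 468 in IL-33+LM8 mice. The IL-33+LM8 mice were apart from the others, while the PBS and IL-33 mice overlapped.

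Among 13 other matricellular genes tested, 3 rose and 7 fell with IL-33, where 27.4% and 27.2% of all genes did. *Thbs2* rose by 1.11 ± 0.23 (adjusted p = 0.005) and *Thbs1* by 1.11 ± 0.09, and *Thbs3* and *Tnxb*, the tenascin of tendon and skin, changed by -1.05 ± 0.10 and -1.04 ± 0.10. With LM8 added, 2 rose and 5 fell. *Thbs2* was at -1.90 ± 0.26 (adjusted p = 0.0019), and *Ccn4*, a Wnt-induced secreted protein, was at -1.30 ± 0.17 (adjusted p = 0.0013). Like *Postn*, *Ccn4* had not passed the test with IL-33 (0.05 ± 0.14, adjusted p = 0.78) and was below PBS in IL-33+LM8 mice (-1.23 ± 0.16, adjusted p = 0.0015). *Sparc*, an abundant collagen-binding protein, had the same course, at 0.16 ± 0.11 (adjusted p = 0.24) with IL-33, -0.67 ± 0.08 (adjusted p = 0.0011) with LM8 added and -0.50 ± 0.12 (adjusted p = 0.021) against PBS.

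Of 17 genes tested for elastic fibers and cross-linking, 9 rose and 6 fell with IL-33, against 27.4% and 27.2% of all genes. The lysyl oxidase relatives *Loxl1*, *Loxl2*, *Loxl3* and *Loxl4* all rose, as *Lox* did, by 0.47, 0.42, 1.17 and 1.47. *Emilin2* rose by 2.11 ± 0.10 (adjusted p = 4.6e-06), and *Fbln5* and *Efemp1*, fibulins of the elastic fiber, changed by -0.84 ± 0.08 and -0.90 ± 0.06, the direction of *Eln*. With LM8 added, 4 rose and 8 fell, against 12.6% and 13.9% of all genes. The microfibril genes *Mfap5* and *Mfap4* were at -1.46 ± 0.09 (adjusted p = 9.8e-05) and -1.28 ± 0.07 (adjusted p = 5.8e-05), *Fbln2* at -1.21 ± 0.17 (adjusted p = 0.0021) and *Loxl2* at -1.01 ± 0.10, all called lower. *Mfap4* ended 1.93 below PBS on the log2 scale (-1.93 ± 0.14, adjusted p = 0.00017), further than *Eln*.

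The receptors that bind fibronectin and osteopontin all passed the test with IL-33, 6 of 10 higher and 4 lower. Of all genes, 27.4% were higher and 27.2% lower in that comparison. *Itgb3*, *Cd44* and *Itga4* rose by 1.46 ± 0.13, 1.34 ± 0.06 and 1.32 ± 0.06 (the largest adjusted p being 7.7e-05), and *Itga8*, an integrin of fibroblasts and smooth muscle, changed by -1.46 ± 0.05 (adjusted p = 1.3e-06). With LM8 added 1 rose, *Itga8* (0.64 ± 0.13, adjusted p = 0.0092), and 5 fell, of which *Itgb3* was called (-1.02 ± 0.09, adjusted p = 0.00038). Of 6 genes tested for epithelial-mesenchymal transition, the program in which *Vim* is read as a mesenchymal marker, 1 rose with IL-33 and 2 fell. *Zeb2* was at 0.31 ± 0.04, *Zeb1* at -0.78 ± 0.05 and *Cdh2*, N-cadherin, at -0.65 ± 0.14. *Cdh1*, E-cadherin, was at -0.13 ± 0.06 (adjusted p = 0.11). Whole-lung values do not separate epithelial cells from others, and a change of cadherins within epithelium was not tested.

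**Figure D3:**
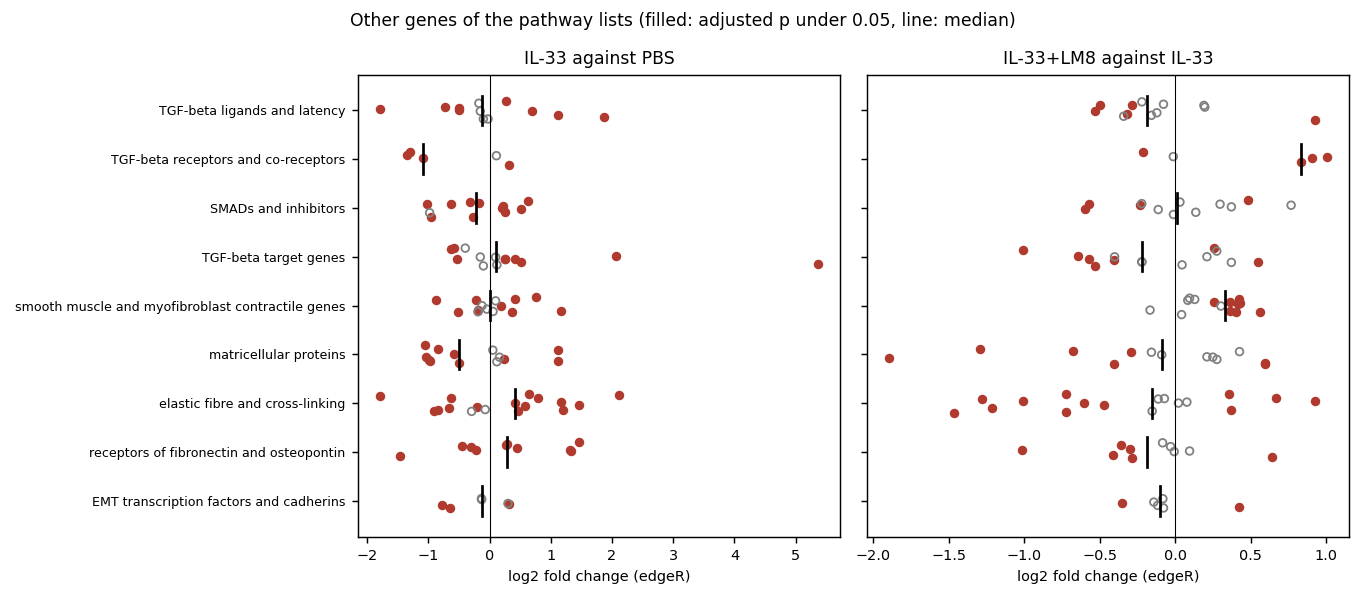
Log2 fold change of each tested gene of the pathway lists, without the 10 genes themselves, in IL-33 against PBS (left) and IL-33+LM8 against IL-33 (right); filled points passed the test, open points did not, and black lines are list medians. With LM8 added, the 8 filled points of the contractile list lie above 0, and the elastic fiber list has 4 above and 8 below.

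Markers of several cell types moved along with these genes. Summed FPKM of 11 macrophage markers ran from 118 to 128 in PBS, 637 to 674 in IL-33 and 276 to 299 in IL-33+LM8 mice. Of the 11, 10 rose with IL-33 and 10 fell with LM8 added. The exception in both was *Marco*, at -1.63 ± 0.20 on the log2 scale with IL-33 and 1.26 ± 0.18 with LM8 added. The group means of *Tgfb1*, *Tgfbi*, *Vim*, *Fn1*, *Tnc* and *Lox* had the same order as the macrophage sum. The 6 markers of all leukocytes followed it as well, at 120.1 to 133, 522 to 548 and 332 to 355. Eosinophil markers ran from 22.0 to 26.2, 54.4 to 58.5 and 13.8 to 14.7, with 1 of 7 at 0 in every PBS mouse. The PBS sum was mostly *Ear1*, which was at 19.4, 14.0 and 5.52 FPKM in the 3 groups, while 3 of the 6 tested were called higher in IL-33+LM8 than in PBS mice. Neutrophil markers did not follow it, with 28.4 to 35.0, 194 to 218 and 891 to 1044 in the same order of groups. The 6 T-cell markers ran from 33.0 to 36.4, 53.9 to 66.6 and 50.0 to 56.1.

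Markers of fibroblasts mostly fell with IL-33, where 8 of the 10 genes rose, *Eln* fell and *Postn* did not pass the test. Of 10 fibroblast markers, 9 fell and 0 rose with IL-33, and 0 fell and 6 rose with LM8 added. Their summed FPKM was 1308 to 1474 in PBS, 447 to 512 in IL-33 and 757 to 1211 in IL-33+LM8 mice. Most of that sum was *Inmt*, a methyltransferase of alveolar fibroblasts, at 962 ± 87.6, 249 ± 23.3 and 694 ± 226 FPKM (SD, n = 3). Pericyte markers (7 genes) were at 88.8 to 93.6, 55.1 to 60.8 and 66.4 to 80.8, and mesothelial markers (6 genes) at 50.3 to 102, 16.1 to 45.4 and 32.5 to 38.8. Of the 7 pericyte markers 1 rose, 4 fell and 2 did not pass with IL-33, and 4 rose and 1 fell with LM8 added. *Rgs5* went against that sum, at 0.861 ± 0.147 on the log2 scale with IL-33 and -0.765 ± 0.148 with LM8 added. Smooth muscle markers (7 genes, of which 6 are also in the contractile list) were at 81.5 to 96.4, 101 to 110.2 and 126 to 129. The step from PBS to IL-33 in that sum was mostly *Actg2*, at 12.7 ± 0.916 and 28.4 ± 3.07 FPKM (SD, n = 3), and of the 7 markers 2 rose, 1 fell and 4 did not pass with IL-33. Epithelial markers (7 genes) were at 425 to 437, 363 to 381 and 344 to 368, and platelet markers (6 genes) at 13.1 to 16.2, 13.9 to 14.8 and 17.4 to 22.1. The step from PBS to IL-33 in the epithelial sum was mostly *Cldn18*, at 125, 66.0 and 76.4 FPKM in the 3 groups. Of the 7 epithelial markers 2 rose, 2 fell and 3 did not pass with IL-33. The platelet sum hides opposite changes: of 4 platelet markers tested, 1 rose, 2 fell and 1 did not pass with IL-33. *Pf4* was at 1.09 ± 0.18 on the log2 scale, *Ppbp* at -1.24 ± 0.15 and *Gp9* at -1.94 ± 0.34. With LM8 added, 2 of the 4 rose, 1 fell and 1 did not pass. The part of any of these cell types in the values of the 10 genes was not tested.

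**Figure D4:**
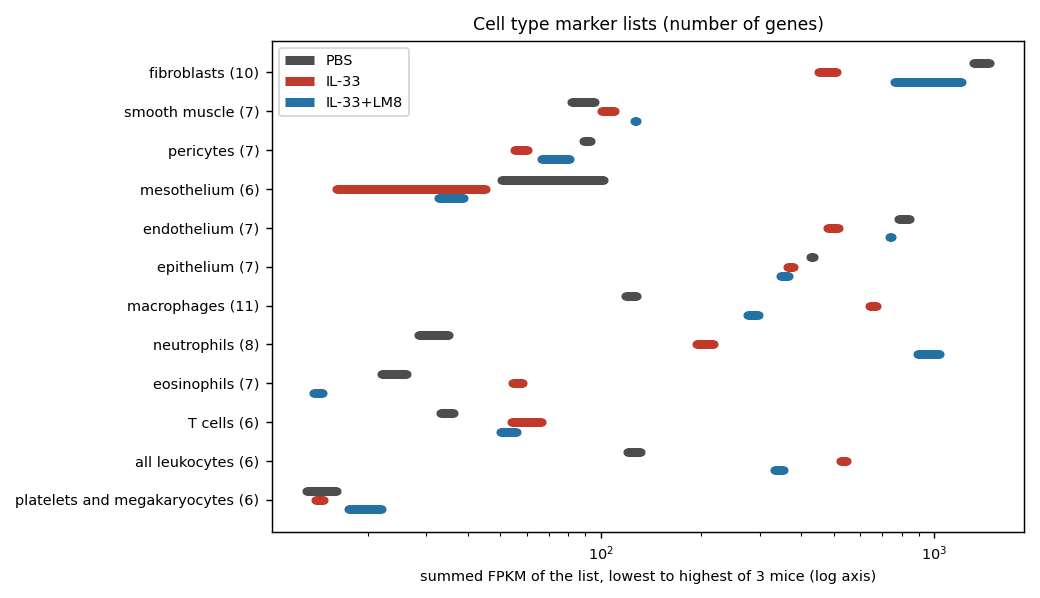
Summed FPKM of the marker genes of each cell type on a log axis; each bar spans the lowest to the highest of the 3 mice of a group, and the number of genes is in parentheses. Macrophage markers are highest in the IL-33 mice, at 637 to 674, smooth muscle markers are highest in the IL-33+LM8 mice, and fibroblast markers are highest in the PBS mice.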

How the data were processed

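RNA of whole lung from 9 mice was sequenced, 3 each in the PBS, IL-33 and IL-33+LM8 groups, which were taken from the labels. The submitters' processing notes list Bowtie 0.12.2, HISAT2 2.0, StringTie 1.3.0 and the build mm10, with no role for each; the coordinates of the deposited table matched GRCm38 for 578 of 32643 shared genes and for none of the 10. The authors deposited raw read counts and FPKM per gene for each mouse in 1 table, in which FPKM is scaled to transcript length and mapped fragments. Whether counting used strand is not given in the sources used here. Of the 10 genes, 4 overlap a gene model on the other strand with at most 55 counts a mouse.

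Counts were fitted with edgeR 4.0.16 (TMM factors, glmQLFit and glmQLFTest) in R 4.3.3, with a separate fit of 6 mice per comparison. Genes entered where FPKM averaged 0.5 or more across the 9 mice and at least 1 read was counted in those 6. Adjustment was Benjamini-Hochberg over all genes tested. The SE is the log2 fold change divided by the square root of F. Alternatives were other filters and scaling factors, DESeq2 1.42.0, limma 3.58.1 on log2(FPKM + 1) and log2(FPKM + 0.1), 1 fit of all 9 mice, the replicate number as a block and each mouse left out. No other covariate was used. The highest total count was 90607218 and the lowest 53877663; no molecular identifiers are named in the sources used here, so counting precision is that of reads, not molecules.

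The 10 genes, the pathway lists and the marker lists were chosen with earlier results of these data known. Named are the 10 genes in each mouse, from each list and comparison up to 2 called genes with the largest rise and 2 with the largest fall, the genes nearest to each of the 10 and the most abundant marker of a list; further list members were named after their values were seen, as were the AP-1, STAT and TATA motifs. Replicate numbers were checked for pairing by the correlation of deviations from the group means. PBS and IL-33+LM8 mice of the same number deviated together (r = 0.307, 0.322 and 0.672). Those of PBS and IL-33 (-0.419, 0.28 and -0.282) and of IL-33 and IL-33+LM8 (-0.38, 0.222 and -0.397) mostly did not. Mice of different number did so as well, among them PBS replicate 3 with IL-33 replicate 1 (r = 0.647) and IL-33 replicate 1 with IL-33+LM8 replicate 3 (r = 0.669). Number alone thus did not set which mice deviated together, and a block by number does not cover such pairs.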

Additional observations from a re-analysis of the deposited data

How the results depend on the processing

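Of 450 values of the 10 genes under alternatives, 438 stayed as they were in direction and in being called or not. *Postn* with IL-33 turned to -0.015 with a mean FPKM of at least 5 and to -0.031 with upper-quartile factors, and ran from -0.015 to 0.022 with a mouse left out; *Spp1* in IL-33+LM8 against PBS ran from -0.226 to 0.067. *Acta2* in IL-33+LM8 against PBS was 0.996 with a mean FPKM of at least 5 and 0.993 with upper-quartile factors. The fall of *Eln* with IL-33 missed the test with limma (adjusted p = 0.066 and 0.067), with no filter (0.076) and with the replicate block (0.082). The difference of *Fn1* between IL-33+LM8 and PBS passed it with DESeq2 (adjusted p = 0.003) and in 1 fit of all 9 mice (0.023), and over all alternatives its adjusted p reached 0.14. The causes were not tested.

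Called genes in IL-33 against PBS, IL-33+LM8 against IL-33 and IL-33+LM8 against PBS were 2865, 907 and 1233. They were 1741, 439 and 588 with limma on log2(FPKM + 1), 1176, 304 and 469 with the filter at 5 FPKM, and 9193, 4459 and 4997 without a fold threshold. Of the 2865, 1815 were higher and 1050 lower, against 1281 and 460 with limma on log2(FPKM + 1) and 4616 and 4577 without a fold threshold. Leaving out a mouse gave 2729 to 2918, 780 to 963 and 1073 to 1297 genes, 5 to 6, 3 to 4 and 2 to 3 of the 10 genes and 20 to 21, 6 to 9 and 10 to 13 of the pathway genes. Without a fold threshold, 9 of the 10 genes passed in IL-33+LM8 against IL-33, not 3, and 6 against PBS, not 3. Called pathway genes went from 21, 8 and 11 to 71, 48 and 48 without it, and for LM8 added to IL-33 to 2 with limma on log2(FPKM + 1) and 5 with the filter at 5 FPKM. The replicate block gave 2841, 836 and 1364 genes and, of the 10 genes, 6, 3 and 3. In IL-33+LM8 against PBS it changed the test of *Fn1* and no call among the 10.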

Other observations

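*Actc1*, the cardiac actin gene, which in mouse lung is known from the muscle around pulmonary veins, did not follow *Acta2*. It was named after its values were seen. *Actc1* was at 101 FPKM in PBS, 43.7 in IL-33 and 50.4 in IL-33+LM8 mice (means, n = 3), with log2 fold changes of -1.20 ± 0.08 (SE, edgeR adjusted p = 2.5e-05) with IL-33, 0.21 ± 0.10 (adjusted p = 0.17) with LM8 added and -0.98 ± 0.08 (adjusted p = 0.00019) against PBS. *Acta2* and *Actg2*, the actins of vascular and visceral smooth muscle, both rose with IL-33 and stayed above PBS in the IL-33+LM8 mice.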
